A study of Mus musculus with 9 samples.

Results

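The constitutive 26S proteasome subunits were followed in N1E-115, a mouse neuroblastoma cell line, in cells labelled as overexpressing Tcof1, wildtype or knocked down for it. The members were 33 genes, listed by symbol: the alpha and beta subunits of the core particle (Psma1 to Psma7 and Psmb1 to Psmb7), and the ATPases and other components of the regulatory particle (Psmc1 to Psmc6 and Psmd1 to Psmd14 without Psmd9). Every probe set whose platform annotation gave exactly 1 symbol, and that symbol a member's, was taken, which gave 61 probe sets for 33 of 33 genes, out of 22626 probe sets tested and 12393 genes with such a probe set. A probe set is a group of array probes read out together as 1 value, and 16 of the genes had more than 1, with 6 for Psmd11. Where a single value per gene was needed, the probe set with the highest mean log2 value stood for the gene. Of the 61, 11 lay below 175.2, the median mean intensity of all probe sets, in every group. Psmd5 and Psmd10 carry subunit names but are known as assembly chaperones of the regulatory particle that are absent from the finished 26S complex, and they are described apart.

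Total RNA was hybridised to 9 one-colour arrays: 3 of N1E-115 cells overexpressing mouse Tcof1, 3 of wildtype N1E-115 cells and 3 of N1E-115 cells labelled as Tcof1 knockdown, lettered A, B and C in each group. The product of Tcof1 is treacle, which works in the nucleolus on the synthesis of ribosomal RNA. The construct or reagent used, and whether the manipulated cells were clones or pools, is not given in the labels. Nor do the labels say that the letters stand for separate cultures, so the p-values measure no more than the spread among the arrays, possibly a technical one.

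The 26S proteasome degrades ubiquitin-tagged proteins. Its core, the 20S particle, is a stack of rings in which outer alpha subunits form a gate and inner beta subunits hold the proteolytic sites. The 19S particle that caps the core has a base with an ATPase ring that unfolds substrates, and a lid whose subunit Psmd14 removes ubiquitin chains. The subunit genes are known to be raised together by the transcription factor Nfe2l1 when proteasome activity falls short, through antioxidant response elements in their promoters.

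Promoters are shown first because Nfe2l1 acts through them. RefSeq promoters of assembly GRCm38.p6, spanning 250 bases before to 50 after the transcription start, were in the table used here for 27 of the 33 genes, 29 promoters in all. The 250 bases before the start are shown for 4 genes with a higher reading in the overexpressing cells, with matches to the 3 motifs searched in capitals. Each is written 5′ to 3′ on the strand of its gene: Psmc6 at chr14:45329574-45329823 (plus strand), Psmb5 at chr14:54617996-54618245 (minus strand), Psmd6 at chr14:14120946-14121195 (minus strand) and Psmc4 at chr7:28050093-28050342 (minus strand).
Psmc6: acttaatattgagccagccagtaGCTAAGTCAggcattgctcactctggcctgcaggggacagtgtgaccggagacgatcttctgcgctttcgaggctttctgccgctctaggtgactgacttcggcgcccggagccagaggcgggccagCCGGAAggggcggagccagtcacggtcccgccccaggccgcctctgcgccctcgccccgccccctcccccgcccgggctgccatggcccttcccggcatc
Psmb5: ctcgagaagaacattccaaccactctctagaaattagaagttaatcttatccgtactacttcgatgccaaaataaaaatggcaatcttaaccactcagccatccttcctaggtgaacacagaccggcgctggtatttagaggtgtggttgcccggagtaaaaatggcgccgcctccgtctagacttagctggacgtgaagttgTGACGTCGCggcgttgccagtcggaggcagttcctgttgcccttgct
Psmd6: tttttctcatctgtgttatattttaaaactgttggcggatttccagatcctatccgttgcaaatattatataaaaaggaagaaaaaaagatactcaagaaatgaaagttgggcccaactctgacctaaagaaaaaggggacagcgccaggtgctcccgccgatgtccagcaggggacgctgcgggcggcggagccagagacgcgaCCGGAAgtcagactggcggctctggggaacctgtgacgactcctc
Psmc4: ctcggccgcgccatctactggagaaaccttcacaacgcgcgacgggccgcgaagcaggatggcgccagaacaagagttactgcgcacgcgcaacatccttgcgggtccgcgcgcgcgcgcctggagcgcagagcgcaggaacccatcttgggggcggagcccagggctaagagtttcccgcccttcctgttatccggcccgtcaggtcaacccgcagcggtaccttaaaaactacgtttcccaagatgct
The motifs were searched on both strands, and the first of them was TGACNNNGC, the core of the antioxidant response element. It was present in the promoters of 4 member genes (Psmb5, Psmb6, Psmc6 and Psmd12), that is in 13.8% of member promoters against 12.4% of all 32851 promoters in the table. In Psmb5 the match begins 47 bases before the start, and in Psmc6 a match on the opposite strand begins 227 bases before it. CCAAT, the box bound by NF-Y, was present in 37.9% of member promoters against 37.4% of all. CCGGAA, the core bound by ETS factors, was present in 55.2% of member promoters against 14.9% of all, and it is the motif in capitals in Psmd6 and the second one in Psmc6. None of the 3 motifs was found in the Psmc4 window. Of the 7 genes called higher in the overexpressing cells (below), 6 had a promoter in the table, and 2 of these 6 held CCGGAA, 2 held TGACNNNGC and 1 held CCAAT. Among the 21 other members with a promoter the numbers were 13, 2 and 10. A match is a string of letters in this window and not a measured binding site.

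Array medians lay between 164.1 and 185.95 intensity units, and log2 values correlated at 0.973 to 0.978 between arrays of a group and at 0.956 to 0.978 between groups. The labelled cell type was checked on its markers: 13 of 15 measured sympathoadrenal markers were above the median of all probe sets in each group, Th, Dbh and Phox2a among them, while Ddc and Slc18a3 were below it. Their summed intensity was 41970 to 46830 on the overexpressing, 51090 to 54350 on the wildtype and 52730 to 57060 on the knockdown arrays. Among fibroblast and matrix markers 2 of 10 were above the median, with sums of 3748 to 4142, 5226 to 5690 and 5313 to 5800. Glial markers had 3 of 6 above it, with sums of 6379 to 8096, 7534 to 9898 and 7864 to 8002, and blood and immune markers 1 of 7, with sums of 624.1 to 752.4, 718.8 to 760.1 and 608.4 to 966. The sympathoadrenal and fibroblast sums were lower on all 3 overexpressing arrays than on any other. Most of the fibroblast sum was Fbln1, with means of 3314 on the overexpressing, 4623 on the wildtype and 4605 on the knockdown arrays. Most of the glial sum was Pmp22, with means of 6579, 7617 and 6781 in the same order. Of the 15 sympathoadrenal markers, 4 had a higher value over wildtype in the overexpressing cells and 11 a lower one. Dbh was higher (log2 0.60, adjusted p = 0.00769 in limma), and 4 markers were lower at an adjusted p under 0.05. These were Eno2 (log2 -1.84), Ache (-1.40), Chga (-0.75) and Stmn2 (-0.38). The part of these markers in the results below was not tested. The ratio of 3′ to 5′ signal of the Gapdh control, a sign of RNA integrity, was 0.733 to 0.813 over the 9 arrays with the groups overlapping. The mean of the 18S ribosomal RNA controls was 3323 on overexpressing array A and 3147 on knockdown array C, against 7078 to 15870 on the others.

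As a check of the labels, Tcof1 passed the test in the overexpressing cells by 1 of its 3 probe sets, the one ending in _a_at, with a log2 fold change over wildtype of 0.87 ± 0.21 (SE; adjusted p = 0.0241 in limma). The others gave 0.63 (adjusted p = 0.0786) and, for the brightest, 0.39 (adjusted p = 0.187). In all 3 each overexpressing array was above each wildtype array. Over knockdown, the sets in the same order gave 1.09 (adjusted p = 0.012 in limma), 1.025 (0.014) and 0.33 (0.267). In knockdown over wildtype the 3 sets gave -0.22, -0.40 and 0.06 with adjusted p from 0.51 to 0.934, so lowered Tcof1 was not detected in the arrays labelled knockdown.

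Cells overexpressing Tcof1 had higher transcript levels of several proteasome genes than wildtype cells. Over wildtype, 8 of 61 member probe sets were called higher, at an adjusted p under 0.05 in limma, and 0 were called lower. These 8 belonged to 7 genes: the ATPases Psmc3, Psmc4 and Psmc6, the core subunit Psmb5, the lid subunits Psmd6 and Psmd14, and the chaperone Psmd5. They make up 13.1% of the member probe sets, where 4.52% of all probe sets were called higher and 5.07% lower. The share of all depended on brightness. With the dimmest 40% left out, 19.9% of all were called in either direction, against 9.59% with none left out. Among the members 7 were then called higher and 0 lower. The member probe sets left by this filter were not counted, so no member share stands beside the 19.9%. The 13.1% and the 4.52% hold only with dim probe sets kept in. The members were not compared with probe sets of matched brightness. Before adjustment and with no probe set left out for dimness, 17 member probe sets were higher and 2 lower at p under 0.05 in limma. That is 31.1% of the member probe sets against 23% of all (5209). The intensities of the groups did not overlap for 17 member probe sets that were higher (13.3% of all probe sets were so) and for 5 that were lower (14.4% of all). Without overexpressing array A, B or C the count of 8 calls became 5, 4 and 5. The share of all probe sets called in either direction went from 9.59% to 5.29%, 5.69% and 6.78%. Without limma's mean-variance trend Psmb5, Psmc3, Psmd6, Psmd14 and Psmd5 were not called, at adjusted p of 0.0592 to 0.117. In bulk RNA a change in the share of cells and a change in RNA per cell cannot be told apart.

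The shift was small for most members. Over the 33 genes the median log2 fold change was 0.11, a 1.08-fold difference, against -0.03 over all 12393 genes with 1 symbol, and 24 of the 33 had a higher value in the overexpressing cells, as did 5761 of the 12393. In knockdown over wildtype 26 of the 33 had a higher value, and 7097 of the 12393. Array by array, the members' median difference from the wildtype mean was 0.21, 0.12 and 0.11 on overexpressing arrays A, B and C, and -0.03, 0.02 and 0.03 on the wildtype arrays. On knockdown arrays A, B and C it was 0.09, 0.02 and 0.10. All genes together gave -0.06, 0.03 and -0.03 on the overexpressing arrays and 0.06, 0.09 and -0.02 on the knockdown arrays. The members' median was thus higher on each of the 3 overexpressing arrays than on any wildtype array. It was highest on overexpressing array A, where the 18S controls were also low. Knockdown array C, the other array with low 18S controls, had the highest members' median of its group. The part of the 18S controls in this was not tested.

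**Figure D1:**
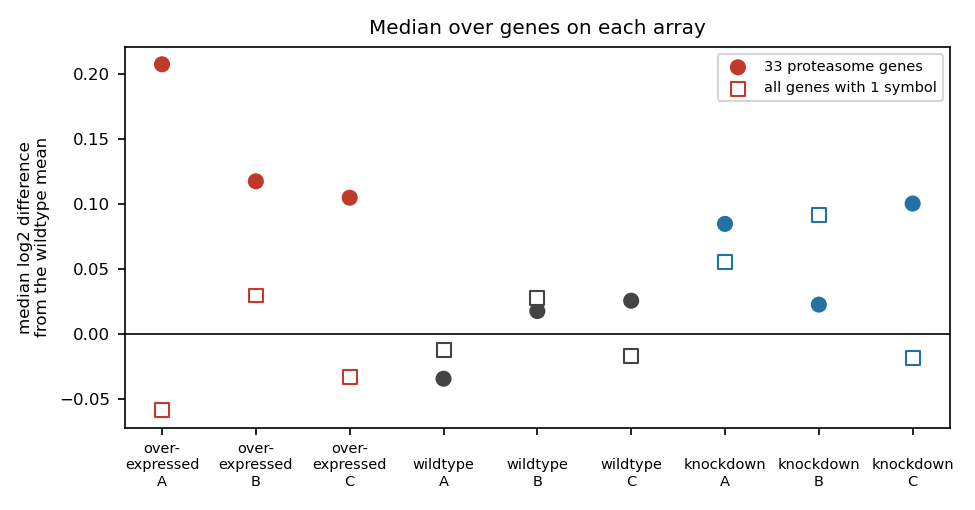
Median over genes of the log2 difference from the wildtype mean on each of the 9 arrays, for the 33 proteasome genes (filled circles) and all genes with 1 symbol (open squares), in red for overexpressing, grey for wildtype and blue for knockdown arrays. The proteasome median lay between 0.11 and 0.21 on the overexpressing arrays and between 0.02 and 0.10 on the knockdown arrays.

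By the brightest probe set, 6 of the 33 member genes were called higher over wildtype in the overexpressing cells and 0 lower. Among all 12393 genes 5.04% were called higher and 6.21% lower, and the counts by part and by list below stand beside these shares. In the beta ring, 1 of 7 genes rose and none fell. Its 3 proteolytic subunits are Psmb5, which carries the chymotrypsin-like activity, Psmb6 (caspase-like) and Psmb7 (trypsin-like). Psmb5 read 6608, 6444 and 6734 on overexpressing arrays A, B and C, 4543, 5341 and 5379 on the wildtype arrays and 5954, 5580 and 5660 on the knockdown arrays. All 3 overexpressing arrays were above all others, and the knockdown arrays lay between the other groups. The log2 fold change over wildtype was 0.38 ± 0.09 (SE), or 1.30-fold, with an adjusted p of 0.0197 in limma. The call was lost without overexpressing array A, B or C, at adjusted p of 0.0631, 0.0521 and 0.0625.

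Psmb6 read 5093, 5054 and 5268 on the overexpressing arrays, 4614, 4651 and 4342 on the wildtype arrays and 4650, 5346 and 4982 on the knockdown arrays. Its overexpressing and wildtype arrays did not overlap, and at 0.18 ± 0.08 (adjusted p = 0.201) it did not pass the test. Psmb7 read 11512, 11062 and 12357 on the overexpressing, 10330, 10454 and 9697 on the wildtype and 10875, 9763 and 10729 on the knockdown arrays. It too was higher on every overexpressing than on every wildtype array, with a log2 fold change of 0.20 ± 0.08 that did not pass (adjusted p = 0.194). The other beta subunits are not proteolytic and ranged from -0.10 for Psmb4 to 0.16 for Psmb3, and the median of the ring was 0.16. Psmb4 was lower on every overexpressing than on every wildtype array and did not pass (adjusted p = 0.572).

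None of the 7 alpha subunits, which form the outer rings and the gate, was called in overexpressed over wildtype. Their log2 fold changes ran from -0.09 ± 0.10 for Psma5 to 0.27 ± 0.09 for Psma4, with a median of 0.11. Psma4 read 3480, 2963 and 3364 on the overexpressing, 2666, 2650 and 2795 on the wildtype and 3120, 2697 and 3204 on the knockdown arrays. Each overexpressing value was above each wildtype value, and the adjusted p was 0.103. Psma5 read 2325, 2545 and 2425 on the overexpressing, 2512, 2867 and 2428 on the wildtype and 2356, 2953 and 2829 on the knockdown arrays, with the groups overlapping.

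The largest called differences lay in the ATPase ring, the motor that unfolds substrates and feeds them into the core. By the brightest probe set 2 of its 6 genes rose, Psmc3 and Psmc4, and Psmc6 rose by its other probe sets. Psmc4 (S6b) read 2556, 2059 and 2470 on the overexpressing arrays, 1366, 1482 and 1666 on the wildtype arrays and 1773, 1560 and 1644 on the knockdown arrays. Wildtype and knockdown arrays overlapped, and all 3 overexpressing arrays stood above both. This was a 1.56-fold difference from wildtype, 0.64 ± 0.11 on the log2 scale, with an adjusted p of 0.00483. A second, dimmer Psmc4 probe set varied widely between arrays of one group, for example 1048, 331 and 954 on the overexpressing arrays, and was not called (0.31 ± 0.47, adjusted p = 0.791). With both sets averaged, Psmc4 was not called (0.48, adjusted p = 0.321).

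Psmc3, known as S6a, read 3858, 3980 and 3575 on the overexpressing arrays, 2247, 2884 and 2616 on the wildtype arrays and 3301, 2608 and 2662 on the knockdown arrays. The overexpressing arrays again lay above the rest, and knockdown array A was the highest of the other 6. Over wildtype the difference was 1.48-fold, 0.56 ± 0.12 in log2, at an adjusted p of 0.0132. Without overexpressing array B the adjusted p was 0.0529.

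Psmc6 (S10b) had 3 probe sets. The brightest, ending in _a_at, read 3852, 3798 and 4111 on the overexpressing arrays, 3360, 3270 and 3239 on the wildtype arrays and 3215, 2860 and 2717 on the knockdown arrays. The groups did not overlap and stood in the order overexpressing, wildtype, knockdown, but 0.25 ± 0.08 over wildtype did not pass the test (adjusted p = 0.0871). The _s_at set, whose probes may also match transcripts of other genes, read 312, 267 and 237 on the overexpressing, 107.4, 107.2 and 141 on the wildtype and 145, 130 and 154 on the knockdown arrays. The dimmest set, whose readings were near the 16 units added before the logarithm, gave 64.4, 63.8 and 48.2, then 15.3, 17.6 and 19.9, then 17.1, 22.7 and 26.1. In both of these dimmer sets the overexpressing arrays were far above the rest, while wildtype and knockdown arrays overlapped. Their differences over wildtype were 2.14-fold (log2 1.10 ± 0.19, adjusted p = 0.00559) and 2.22-fold (1.15 ± 0.22, adjusted p = 0.00818). The sizes by probe set therefore ranged from 1.19-fold to 2.22-fold for 1 gene, and the difference between the sets was not tested. The size of the dimmest set depended on the amount added before the logarithm: its log2 difference was 1.68 with 1 unit added and 0.59 with 64. Both dimmer sets kept their calls in each alternative that held them, and Psmc6 was called with its 3 sets averaged (0.83, adjusted p = 0.00136).

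Among the remaining ATPases, Psmc1 read 1777, 1567 and 1617 on the overexpressing, 1828, 1892 and 1885 on the wildtype and 1839, 1400 and 1739 on the knockdown arrays. It was the ring's only member with a lower value over wildtype, -0.18 ± 0.11. Each overexpressing value was below each wildtype value, and the test was not passed (adjusted p = 0.38). Psmc2 and Psmc5 gave 0.10 and 0.11 and were not called. The median of the 6 ATPases was 0.18.

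The rest of the base holds the large scaffolds Psmd1 and Psmd2 and the ubiquitin receptor Psmd4, and 0 of these 3 genes were called. Psmd1 read 3188, 2303 and 3137 on the overexpressing, 2175, 2602 and 2666 on the wildtype and 2441, 2511 and 2297 on the knockdown arrays, with overexpressing array B inside the wildtype range. Its log2 fold change was 0.20 ± 0.13 (adjusted p = 0.418), and that of Psmd2 was 0.04. Psmd4 ran the other way: its brightest set read 3210, 3436 and 3632 on the overexpressing, 4295, 4002 and 4040 on the wildtype and 4095, 4517 and 4425 on the knockdown arrays. All overexpressing values were below all others, and over wildtype the difference was -0.26 ± 0.08, which missed the threshold (adjusted p = 0.066). A second bright set gave -0.29 (adjusted p = 0.109), and a dim one gave 0.75 with overlapping groups (adjusted p = 0.281).

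In the lid, 2 of 8 genes rose, with a median of 0.16 over the 8. Psmd14 (Rpn11), the deubiquitinase, read 6266, 5944 and 6207 on the overexpressing arrays, 4122, 4897 and 4823 on the wildtype arrays and 5159, 5086 and 4856 on the knockdown arrays. Overexpressing arrays were again the highest 3 of the 9. The log2 fold change over wildtype was 0.41 ± 0.09, or 1.33-fold (adjusted p = 0.0128), and without overexpressing array A the adjusted p was 0.0505.

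Psmd6 (Rpn7), a structural lid subunit, read 3119, 3304 and 3634 on the overexpressing arrays, 1933, 2394 and 2918 on the wildtype arrays and 2728, 2632 and 2803 on the knockdown arrays. The wildtype arrays were the most spread of the 3 groups and still lay below the overexpressing ones. At 0.49 ± 0.13, or 1.40-fold, it passed narrowly (adjusted p = 0.0401). The call was kept in 9 of 21 alternatives, among them the average over its probe sets (0.40, adjusted p = 0.0425). It was lost without any one overexpressing or knockdown array and without wildtype array A or B, at adjusted p of 0.0551 to 0.125. A second, dimmer Psmd6 probe set had overlapping groups and was not called (0.32 ± 0.15, adjusted p = 0.242). At the other end of the lid, Psmd12 (Rpn5) read 2574, 2396 and 2021 on the overexpressing, 2183, 2893 and 2674 on the wildtype and 2821, 2307 and 2673 on the knockdown arrays. Its groups overlapped, at -0.15 ± 0.13 (adjusted p = 0.59). The other lid genes ranged from -0.002 for Psmd8 to 0.23 for Psmd13 without a call.

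Of the chaperones, Psmd5 (S5b) rose and Psmd10 (gankyrin) was not called. Psmd5 read 1903, 2111 and 2020 on the overexpressing arrays, 1310, 1561 and 1603 on the wildtype arrays and 1658, 1648 and 1487 on the knockdown arrays. Every overexpressing value exceeded every other value, a 1.35-fold difference from wildtype (0.43 ± 0.10, adjusted p = 0.0195). The call was lost without overexpressing array B or C or wildtype array A, at adjusted p of 0.0748, 0.0569 and 0.0549. Psmd10 read 489, 548 and 553 on the overexpressing, 519, 578 and 499 on the wildtype and 543, 657 and 692 on the knockdown arrays, and its difference over wildtype was -0.005 ± 0.12 (adjusted p = 0.991).

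**Figure D2:**
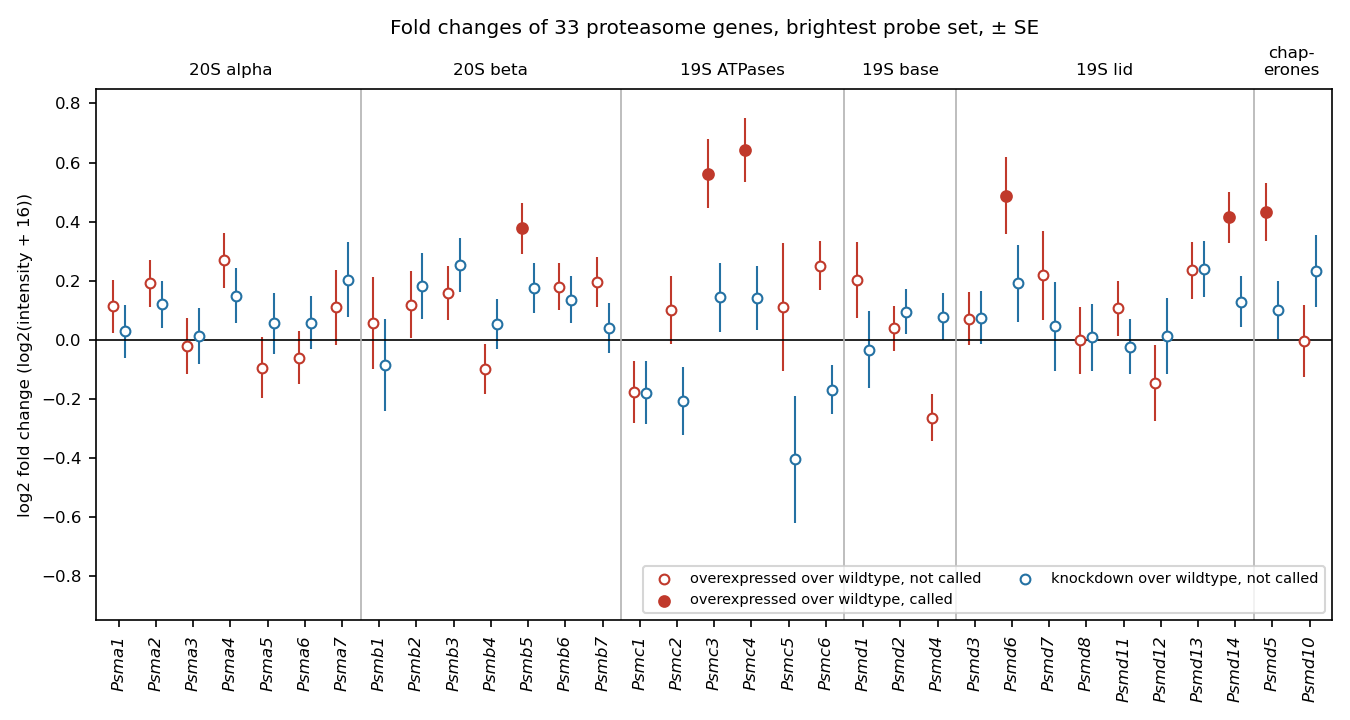
Log2 fold change ± SE over wildtype of each of the 33 genes by its brightest probe set, grouped by place in the complex, for overexpressed (red) and knockdown cells (blue). Filled points passed an adjusted p of 0.05: Psmb5, Psmc3, Psmc4, Psmd6, Psmd14 and Psmd5, from 0.38 to 0.64, all in the overexpressing cells.

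No member passed the test in knockdown over wildtype. In limma 0 of 61 probe sets were called higher and 0 lower, where 0.00442% of all probe sets (1 of 22626) were called higher and 0.00884% (2) lower. At an unadjusted p under 0.05, 4 member probe sets were higher and 2 lower, 9.84% of the member probe sets against 10.9% of all. Groups did not overlap for 6 member probe sets that were higher (8.63% of all probe sets were so) and 4 that were lower (7.01% of all). The median log2 fold change was 0.08 over the 33 genes and 0.04 over all genes. By place in the complex the medians were 0.06 for the alpha ring, 0.14 for the beta ring, -0.17 for the ATPases, 0.08 for the rest of the base and 0.06 for the lid.

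The members with the smallest p in knockdown over wildtype were Psma6, Psmb3 and Psmd11. For Psma6 this was a probe set near the floor of the array, at 16.7, 19.7 and 26.8 on the knockdown, 0.2, 1.8 and 1.4 on the wildtype and 9.8, 13 and 7.9 on the overexpressing arrays. The knockdown arrays were the highest and the wildtype arrays the lowest, and the difference over wildtype did not pass the test (adjusted p = 0.0701). With wildtype readings this close to 0 its size is set by the amount added before the logarithm: the log2 difference was 1.11 with 16 units added, 3.43 with 1 and 0.38 with 64. The other Psma6 probe sets were brighter and gave 0.06, 0.06 and 0.17. For the beta subunit Psmb3, the set with the smaller p read 3767, 3449 and 3943 on the knockdown, 3032, 3064 and 3174 on the wildtype and 3574, 3304 and 3387 on the overexpressing arrays. Knockdown arrays were above wildtype arrays in both of its probe sets, at 0.26 ± 0.08 (adjusted p = 0.277) and 0.25 (adjusted p = 0.356). For the lid subunit Psmd11 (Rpn6), 1 of 6 probe sets read 523, 482 and 566 on the knockdown, 880, 576 and 635 on the wildtype and 769, 701 and 762 on the overexpressing arrays. The knockdown arrays were below the other groups in that set (-0.38 ± 0.15, adjusted p = 0.385), whereas the brightest Psmd11 set gave -0.02.

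Psmc5 (Rpt6) had the lowest knockdown value of the 33 by the brightest probe set and is named for that, after its values were seen. It read 1952, 1489 and 2167 on the knockdown, 2320, 2313 and 2744 on the wildtype and 3810, 2531 and 1919 on the overexpressing arrays. All knockdown values were below all wildtype values, at -0.41 ± 0.22, and the test was not passed (adjusted p = 0.534). The overexpressing arrays spanned both other groups.

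Setting the overexpressing against the knockdown cells shares the overexpressing arrays with the first comparison and the knockdown arrays with the second, so the values below are not independent of those above. Here 4 member probe sets were called higher, against 3.43% of all probe sets, and 1 was called lower, against 4.14% of all. The 4 were 6.56% of the member probe sets and came from Psmc4 and Psmc6 alone, and the 1 was Psmd4. Groups did not overlap for 14 member probe sets that were higher (12.9% of all probe sets were so) and 3 that were lower (15.2% of all). The 5 calls became 1 without overexpressing array A or knockdown array B, 2 without overexpressing array B or knockdown array C, and 9 without wildtype array A. The share of all probe sets called in either direction was 7.57% with all arrays. In these fits, in the order named, it was 3.11%, 4.01%, 4.23%, 4.44% and 9.05%.

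Psmc4 was 1.42-fold higher in overexpressing than in knockdown cells (log2 0.50 ± 0.11, adjusted p = 0.0208). Without overexpressing array A or C or knockdown array B or C the adjusted p was 0.0857, 0.0645, 0.0709 and 0.0608, and without the mean-variance trend it was 0.081. Psmc6 was called by all 3 of its probe sets, at 0.42 ± 0.08 for the brightest (adjusted p = 0.014) and 0.85 (adjusted p = 0.0237) and 0.98 (adjusted p = 0.0221) for the dimmer sets. The brightest set lost its call without knockdown array C, at 0.0516, and without the mean-variance trend, at 0.0791. Each dimmer set lost it without overexpressing array A or B or knockdown array A or B, at 0.0652 to 0.104 for the _s_at set and 0.0584 to 0.0797 for the dimmest.

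The 6 ATPases had the highest median among the parts of the complex in this comparison, 0.42, and the brightest probe sets of all 6 had a higher value in the overexpressing cells. These values ran from 0.002 for Psmc1 to 0.51 for Psmc5, whose arrays overlapped (adjusted p = 0.187). Of the 6, 2 were called higher, as were 3.56% of all genes by the brightest probe set. The corresponding medians were -0.04 for the alpha ring, 0.04 for the beta ring, -0.06 for the rest of the base and 0.06 for the lid, and that over all genes was -0.08.

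Psmd4, the ubiquitin receptor, was 0.34 ± 0.08 lower on the log2 scale in overexpressing than in knockdown cells (a fold of 0.789, adjusted p = 0.0282). Its second bright probe set gave -0.21 and was not called (adjusted p = 0.246). The call was lost without overexpressing array A or B (adjusted p = 0.112 and 0.0757), without knockdown array B or C (0.0903 and 0.0816), with arrays set to a common median (0.138) and without the mean-variance trend (0.122). With all Psmd4 probe sets averaged the difference shrank to -0.08 (adjusted p = 0.764).

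**Figure D3:**
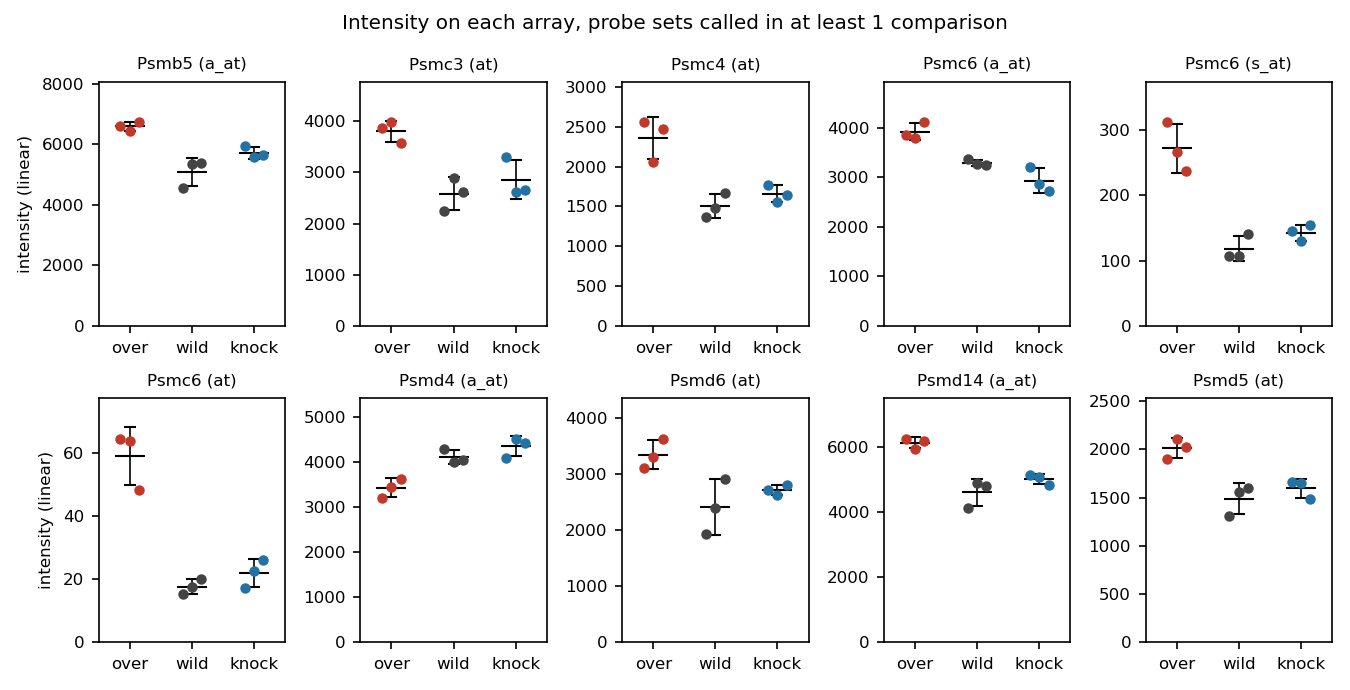
Linear intensity on each array (points, in order A, B, C) with mean and SD (bars) for the 10 member probe sets called in at least 1 comparison; over, wild and knock stand for overexpressing, wildtype and knockdown cells. The overexpressing arrays lie above both other groups in every panel except Psmd4, where they lie below.

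Of the 7 genes higher over wildtype, Psmc3, Psmd14 and Psmd5 lie on chromosome 2, Psmb5, Psmc6 and Psmd6 on chromosome 14, and Psmc4 on chromosome 7. Whole chromosomes differed between the groups: by the brightest probe sets, 10.8% of genes on chromosome 2 were called higher and 3.73% lower, with a median of 0.07, while on chromosome 3 it was 1.59% higher and 9.84% lower, with a median of -0.09. On chromosome 14 the shares were 6.18% and 2.97% with a median of 0.003, and on chromosome 7 they were 4.07% and 6.68% with a median of -0.008. The 3 members on chromosome 3, Psma5, Psmb4 and Psmd4, all had lower values over wildtype, as did the 3 on chromosome 12 (Psma3, Psma6 and Psmc1), where the median of all genes was -0.15. Chromosome 11 holds 6 members, none of them called.

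With each chromosome's median removed from each array, an alternative added after these positions were seen, 7 of the 8 calls over wildtype remained. Psmc3 was then 0.47 (adjusted p = 0.0295), Psmd14 0.32 (0.0451), Psmd5 0.34 (0.0456), Psmb5 0.36 (0.0346) and Psmc4 0.66 (0.00902). Psmd6 was lost at an adjusted p of 0.0588, and the dim Psma6 probe set was gained. Psma5 and Psmb4 turned from below to just above 0 (0.013 and 0.0082), and the Psmd4 call against knockdown was lost (-0.19, adjusted p = 0.25).

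**Figure D4:**
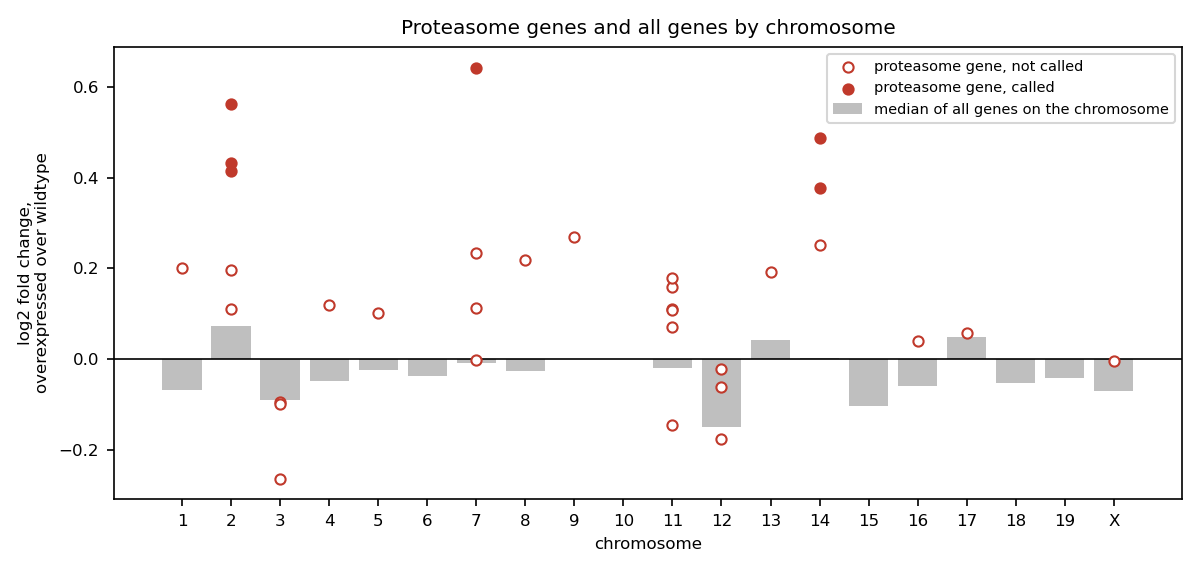
Log2 fold change, overexpressed over wildtype, of the 33 proteasome genes by their brightest probe sets (circles, filled where called) and the median of all genes on each chromosome (grey bars). Filled circles stand on chromosomes 2, 7 and 14, and the members on chromosomes 3 and 12 lie below 0.

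Other genes of the pathway were read from 6 lists. Of the assembly factors outside the members, which help to build the core and the base, 6 of 7 were measured and 0 were called in any comparison. The one with the smallest p over wildtype was Pomp, the core maturation factor, at 0.24 ± 0.07 (adjusted p = 0.0526). It read 3749, 3788 and 3727 on the overexpressing, 3207, 3188 and 3148 on the wildtype and 3525, 3700 and 3659 on the knockdown arrays. Wildtype was the lowest group without overlap.

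The list of immunoproteasome subunits and alternative caps, used in antigen processing and in capping the core in place of the 19S particle, had 7 of 8 measured and 0 called over wildtype, with a median of 0.06. Psmb9, the immunoproteasome counterpart of Psmb6, read 190, 233 and 173 on the overexpressing, 249, 243 and 260 on the wildtype and 352, 327.2 and 326.5 on the knockdown arrays. The groups did not overlap and stood in the order knockdown, wildtype, overexpressing. Overexpressing was lower than knockdown by a log2 value of -0.72 ± 0.15 (adjusted p = 0.0187), and the differences from wildtype were -0.32 (adjusted p = 0.238) and 0.40 (adjusted p = 0.378). A second probe set of the nuclear cap Psme3 was higher in overexpressing than in knockdown cells (0.77 ± 0.19, adjusted p = 0.0369), while its brightest gave 0.17 (adjusted p = 0.449).

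Of the proteasome-associated proteins 7 of 10 entries were measured, and 0 were called by the brightest probe set. The deubiquitinase Usp14 had the smallest p over wildtype, at 0.32 ± 0.10 (adjusted p = 0.0708). A dim probe set of Txnl1 was called lower against knockdown (-1.39 ± 0.29, adjusted p = 0.0183), and the brightest of its 6 gave 0.19. Among shuttle factors and the p97 complex, which bring ubiquitinated proteins to the proteasome, 7 of 9 entries were measured. The shuttle factor Ubqln2 fell over wildtype by its brightest probe set, at 2385, 2543 and 2305 against 3132, 3192 and 3340 (log2 -0.42 ± 0.07, adjusted p = 0.00621). The knockdown arrays, at 2688, 2776 and 2748, lay between the groups. The dimmer Ubqln2 sets gave -0.14 (adjusted p = 0.732) and 0.41 (adjusted p = 0.666) over wildtype and were not called. Nploc4, a p97 cofactor, was higher in overexpressing than in knockdown cells (0.45 ± 0.11, adjusted p = 0.0276).

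Of the regulators of proteasome genes 7 of 8 were measured. Nfe2l1, described above, was not called over wildtype at -0.11 ± 0.12 (adjusted p = 0.688), and its relative Nfe2l2 gave 0.05 ± 0.12 (adjusted p = 0.886). Maff, a small Maf protein that pairs with these factors on antioxidant response elements, fell: it read 228, 242 and 179 on the overexpressing, 769, 521 and 376 on the wildtype and 526, 487 and 545 on the knockdown arrays. The overexpressing arrays were below all others, at -1.25 ± 0.22 over wildtype (adjusted p = 0.00612) and -1.21 ± 0.22 over knockdown (adjusted p = 0.00983). In knockdown over wildtype 0 genes of these lists were called. The smallest p of each list there belonged to Psmg4 (0.29, adjusted p = 0.355), Psmf1 (0.29, adjusted p = 0.336), the dim Txnl1 set (1.22, adjusted p = 0.178), Ubqln2 (-0.23, adjusted p = 0.302) and Keap1 (-0.32, adjusted p = 0.412). Of the 6 ubiquitin genes and activating enzymes, 0 had a probe set with exactly 1 symbol, and they were not analysed here.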

How the data were processed

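Total RNA of 9 samples was measured on 1-colour arrays. The authors deposited linear intensity values, 1 per probe set and array. Which software, background correction and scaling made them is not stated in the sources used here. A mean trimmed of 2% at each end lay between 500.18 and 500.2 on every array, which shows a common scaling before deposit. The table carries no detection calls. Of 22690 probe sets, 64 controls were left out. Gene names come from the platform annotation, in which 20380 probe sets had exactly 1 symbol, 691 several and 1555 none. All 33 members matched RefSeq by gene identifier.

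Values were converted to log2(intensity + 16), a scale on which changes of dim probe sets are understated. A model with 1 mean per group was fitted to the 9 arrays together in limma 3.58.1 (R 4.3.3), using lmFit and then eBayes with trend. Fold changes are log2 values with SE. Benjamini-Hochberg adjustment covered 22626 probe sets per comparison, and calls needed an adjusted p under 0.05. Levels are compared between probe sets only for brightness (the brightest set of a gene, the median of all and the brightness filter) and in the marker sums. The fit was tested on simulated data. The number of arrays limits the precision.

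The members and gene lists were chosen with earlier results of these data known, so counts and medians over them are given as descriptions beside those of all probe sets, with no test of the list. Members described array by array were those called in any comparison, the proteolytic subunits, the extremes of each part of the complex in overexpressed over wildtype, and the smallest p in knockdown over wildtype; from each pathway list, called genes or else the smallest p. Alternatives covered the pseudocount, a brightness filter, scaling, the variance model, the letter as a block, the probe sets used and leaving out each array.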

Additional observations from a re-analysis of the deposited data

How the results depend on the processing

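Knockdown over wildtype gave 0 member calls under every alternative run, and its median kept its direction in all of them. For overexpressed over wildtype, the count of 8 calls became 4 without the mean-variance trend, where 5.92% of all probe sets were called against 9.59% with it. Of the 8, 3 were kept there and a Psma6 probe set was gained. The count became 5 without probe sets that can match several transcripts or genes, where 9.01% of all those left were called. With single arrays left out it ranged from 4 (without overexpressing array B) to 8, and the share of all probe sets called from 4.82% to 10.6%. The median of 0.11 became 0.18 when all probe sets of a gene were averaged, and was 0.11 to 0.16 with single arrays left out, highest without wildtype array C. For overexpressed over knockdown, the 5 calls became 2 without the trend, 9 with only the 2 groups in the fit and 2 without those probe sets. The share of all probe sets called was 3.69%, 7.88% and 7.06% in these, against 7.57%. With single arrays left out the member calls ranged from 1 (without overexpressing array A or knockdown array B) to 9 (without wildtype array A), as given above with the shares of all. The median of 0.07 became 0.13 with a common array median and 0.12 with chromosome medians removed. The cause of these changes was not tested. Log2 fold changes of named genes over wildtype that changed sign were all uncalled: Psma5 (0.013), Psmb4 (0.0082) and Psmd10 (0.093) with chromosome medians removed, Psmd4 (0.068) with all probe sets averaged, and Psmd10 with a common median (0.023). Leaving out single arrays moved Psmd10 between -0.048 (without wildtype array C) and 0.055 (without wildtype array B), and to 0.051 without overexpressing array A. Psmc4 lost both of its calls when its probe sets were averaged (adjusted p = 0.321 over wildtype and 0.122 over knockdown). The shared letters were not taken as pairs. Deviations of same-letter arrays correlated at -0.012 to 0.102, with 1 of 9 pairs over 0.1. Those of other-letter arrays correlated at -0.12 to 0.099, with 0 of 18 over 0.1. Whether the letters carry a weak shared effect was not tested. With the letter as a replicate block there were 9, 0 and 5 member calls in the 3 comparisons and medians of 0.11, 0.08 and 0.07. With 3 arrays per group and no detection calls, changes of dim probe sets are the least certain.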
